A study of Drosophila melanogaster with 18 samples.

Results

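Whole third-instar Drosophila melanogaster larvae of 2 NUAK overexpression groups, mef2>NUAK550 and mef2>NUAK548, were compared by RNA-seq. The 6 libraries were chosen by their labelled group and preparation from the 18 of the series, and each group held 3. The other libraries are 3 of mef2>lacZ whole larvae and 9 of dissected muscle carcass from lacZ, NUAK548 and NUAK550 larvae. All larvae carried mef2, a driver active in muscle, so a readout from whole larvae sums the driven tissue with every other tissue. In the control the driver expressed lacZ, a bacterial reporter gene, and in both NUAK groups it expressed the kinase NUAK. Both NUAK groups are labelled as 1 overexpression genotype, and the labels do not say what sets NUAK548 and NUAK550 apart. They give no sex and no cross or culture for any library, so that p-values measure only the spread between these libraries. Flies were kept at 25 °C.

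NUAK belongs to the AMPK-related kinases, and in fly muscle it is known for a role in protein upkeep together with the cochaperone Starvin. Larval body wall muscle is built of sarcomeres, in which myosin thick filaments slide past actin thin filaments that are anchored in Z-discs and gated by troponin and tropomyosin. The larval midgut secretes proteases, amylases, maltases and lipases, the salivary glands make the glue that fixes the pupa to its support, and the epidermis lays down chitin-binding cuticle proteins at each moult. In RNA from whole animals, fewer cells of a type and less RNA per cell cannot be told apart.

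The NUAK548 libraries held 19503216, 17768743 and 16770092 counted reads and the NUAK550 libraries 14931020, 17811812 and 22341807. Values of a group are listed in the order of replicates 1, 2 and 3 throughout. Levels are CPM, the usual unit of counts scaled to a common library size, and differences are log2 fold changes of NUAK550 over NUAK548 with their standard errors (SE). Calls are genes with an adjusted p below 0.05 in edgeR's quasi-likelihood test, with Benjamini-Hochberg adjustment over 12255 genes. Markers of 9 larval tissues, among them midgut, salivary gland, epidermis, muscle, fat body and neurons, were detected in these libraries, and no marker was at 0 in all 6.

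NUAK548 replicate 1 stood apart. Its log2 CPM correlated with those of the other NUAK548 libraries at 0.881 and 0.885, where these 2 correlated with each other at 0.981 and the NUAK550 libraries at 0.987 to 0.993. A list of 22 testis genes summed to 867, 36.5 and 26.8 CPM in NUAK548 and to 51.1, 44.5 and 49.1 CPM in NUAK550. The first NUAK548 library was thus 27.4-fold above the mean of its group mates, at a level near the 629 to 731 CPM of the lacZ larvae, and the other 5 NUAK libraries were low. The median log2 fold change of the testis list was −5.02 with this library and 0.33 without it.

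Both noncoding RNAs of the male dosage compensation complex followed the same library. The list of 7 dosage compensation genes that holds them had a median log2 fold change of −0.20 with this library and −0.03 without it. The noncoding RNA lncRNA:roX1 was at 222, 26.8 and 22.9 CPM in NUAK548 and at 33.6, 30.5 and 28.4 CPM in NUAK550. The first library again lay with lacZ, at 196 to 228 CPM. lncRNA:roX2 was at 4.19, 0.0554 and 0 CPM in NUAK548 and had no count in any NUAK550 library. Neither difference was called, with adjusted p = 0.29 for lncRNA:roX1 and 0.23 for lncRNA:roX2. Counts, list medians and the called genes are therefore given with and without NUAK548 replicate 1.

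The driven gene was higher in NUAK550. Nuak (BDGP6 3R:10264306-10308467, plus strand) was at 1500, 1350 and 1340 CPM in NUAK548 and at 2800, 2670 and 2840 CPM in NUAK550, against 67.9, 123 and 108 CPM in lacZ. The groups did not overlap, and NUAK550 was 1.98-fold above NUAK548. The difference of log2 0.99 (SE 0.21) was not called with the spread shared over 9 libraries (adjusted p = 0.12). It was not called without NUAK548 replicate 1 either (log2 1.07, adjusted p = 0.17). It passed with only the 6 NUAK libraries in the fit (adjusted p = 0.032) and in DESeq2 (0.00029).

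In all, 17 of 12255 genes were called, which is 0.139%. Of these, 16 rose in NUAK550 (0.131%) and 1 fell (0.00816%), while 2625 genes (21.4%) had an unadjusted p below 0.05. Without NUAK548 replicate 1, 8 of 12370 genes were called (0.0647%), 7 higher (0.0566%) and 1 lower (0.00808%), and 7 of them were among the 17, so that 10 calls were lost. The counts differed between models. A fit to the 6 NUAK libraries alone called 134 genes (1.29%), 120 higher (1.15%) and 14 lower (0.134%). DESeq2 called 989 of the 11994 genes to which it gave an adjusted p (8.25%), 668 higher (5.57%) and 321 lower (2.68%). Both lists held all 17 genes.

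**Figure D1:**
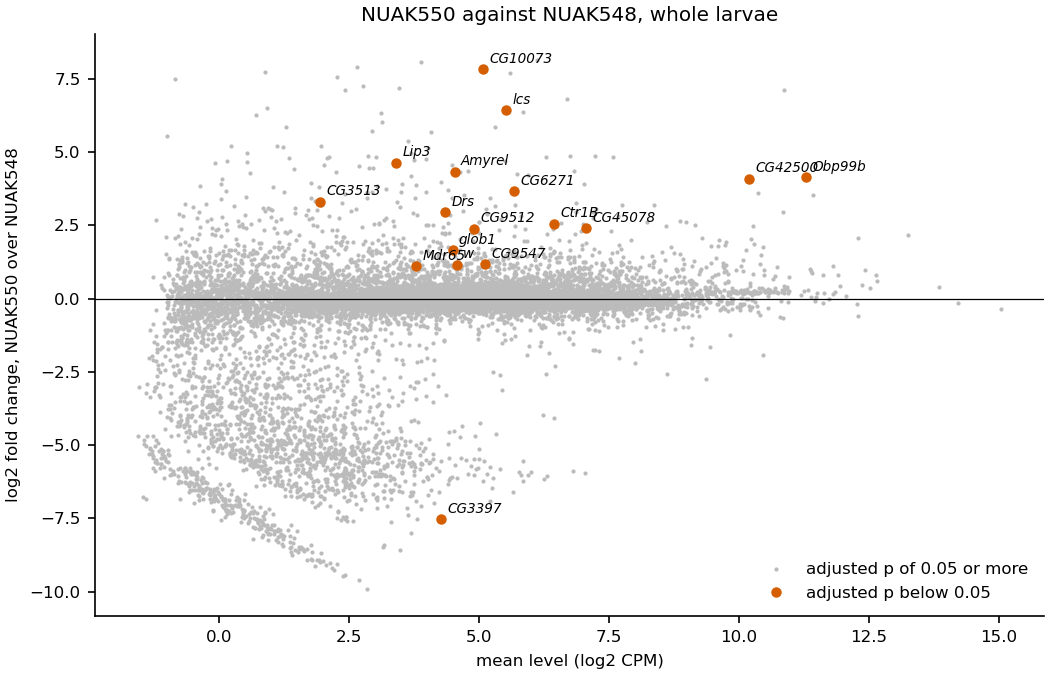
Each point is 1 of the 12255 tested genes, with its mean level in log2 CPM on the horizontal axis and its log2 fold change of NUAK550 over NUAK548 on the vertical axis. The 17 called genes are coloured, 16 above the line and CG3397 below it; the grey cloud at strongly negative values includes the testis genes of NUAK548 replicate 1.

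One rise with little spread between replicates was that of the eye-pigment transporter gene white, w (X:2790599-2796466), which many fly transgenes carry as a marker. It was at 17.7, 16.1 and 15.7 CPM in NUAK548 and at 37.0, 37.2 and 36.7 CPM in NUAK550. lacZ, at 19.1, 16.1 and 17.5 CPM, lay with NUAK548. The log2 fold change was 1.17 (SE 0.10, adjusted p = 0.012) and 1.25 without NUAK548 replicate 1 (adjusted p = 0.024).

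Among the steepest rises was lcs (X:21396727-21397316), which went from 0.757, 2.44 and 1.48 CPM to 149, 102 and 149 CPM. This gives log2 6.43 (SE 0.51, adjusted p = 0.012), or 6.11 without NUAK548 replicate 1 (adjusted p = 0.0098), and lacZ lay at 1.71 to 4.09 CPM. The single fall was that of CG3397 (3R:11983098-11984541), from 48.7, 51.8 and 69.7 CPM in NUAK548 to 0.147, 0.121 and 0.575 CPM in NUAK550. This is a difference of log2 −7.53 (SE 0.81, adjusted p = 0.023), and of −7.58 without NUAK548 replicate 1 (adjusted p = 0.0098). CG3397 was also near 0 in lacZ, at 0 to 0.466 CPM, and among whole larvae was thus high in the NUAK548 group alone.

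Further calls included a globin and an antifungal peptide. glob1, a haemoglobin of the tracheal system and fat body, was at 12.2, 14.9 and 12.4 CPM in NUAK548 and at 35.9, 35.8 and 52.8 CPM in NUAK550 (log2 1.66, SE 0.17, adjusted p = 0.023). Drs, which encodes the antifungal peptide drosomycin, rose from 3.16, 2.10 and 3.31 CPM to 22, 30.1 and 14.2 CPM (log2 2.95, SE 0.31, adjusted p = 0.023). lacZ larvae were at 29.9 to 39.4 CPM, so that the low group for Drs was NUAK548. CG9512, CG9547 and CG3513 rose by log2 2.39, 1.19 and 3.31. Without NUAK548 replicate 1, CG9512 was still called (adjusted p = 0.027), while glob1 (0.058), Drs (0.058), CG9547 (0.067) and CG3513 (0.058) were not, at log2 fold changes of 1.63, 3.06, 1.19 and 3.22. Drs was also not called by limma-voom (adjusted p = 0.052) or with a replicate block (0.069).

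The next genes fall outside the rule by which genes were named and were chosen after their values were seen. Obp99b, an odorant-binding protein of the fat body, stood at 124, 194 and 173 CPM in NUAK548 and at 2430, 4670 and 1630 CPM in NUAK550 (log2 4.15, SE 0.46, adjusted p = 0.023). Its level in lacZ was 3320 to 5910 CPM. Ctr1B, a copper importer, was at 12.2, 17.8 and 11.9 CPM and at 124, 63.3 and 59.5 CPM (log2 2.56, SE 0.32, adjusted p = 0.045). The blood-brain barrier transporter gene Mdr65 rose by log2 1.11, CG42500, at 94.7, 40.7 and 142 CPM against 1570, 1650 and 1530 CPM, by 4.10, CG10073 by 7.84 and CG45078 by 2.40. Without NUAK548 replicate 1 none of these was called, with adjusted p = 0.067 for Obp99b, 0.085 for Ctr1B, 0.088 for Mdr65, 0.080 for CG42500, 0.078 for CG10073 and 0.078 for CG45078. Exons of other genes cover 45.6% of CG45078 and 38.4% of Ctr1B, and as the strand setting of the counting is not given in the sources used here, their reads cannot be assigned with certainty.

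Set beside lacZ, the 17 genes fell into 2 sets of nearly equal size. On the log2 scale the lacZ mean lay nearer to NUAK548 for 9 genes and nearer to NUAK550 for 8, which were Amyrel, Lip3, Drs, CG3397, CG3513, Obp99b, CG42500 and Ctr1B. Lip3 was close to the middle, while for Amyrel, Drs, CG3513, Obp99b and CG42500 the lacZ and NUAK550 libraries overlapped and NUAK548 was low. For CG3397 they also overlapped, and NUAK548 was high. For Ctr1B all lacZ libraries lay above NUAK550.

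**Figure D2:**
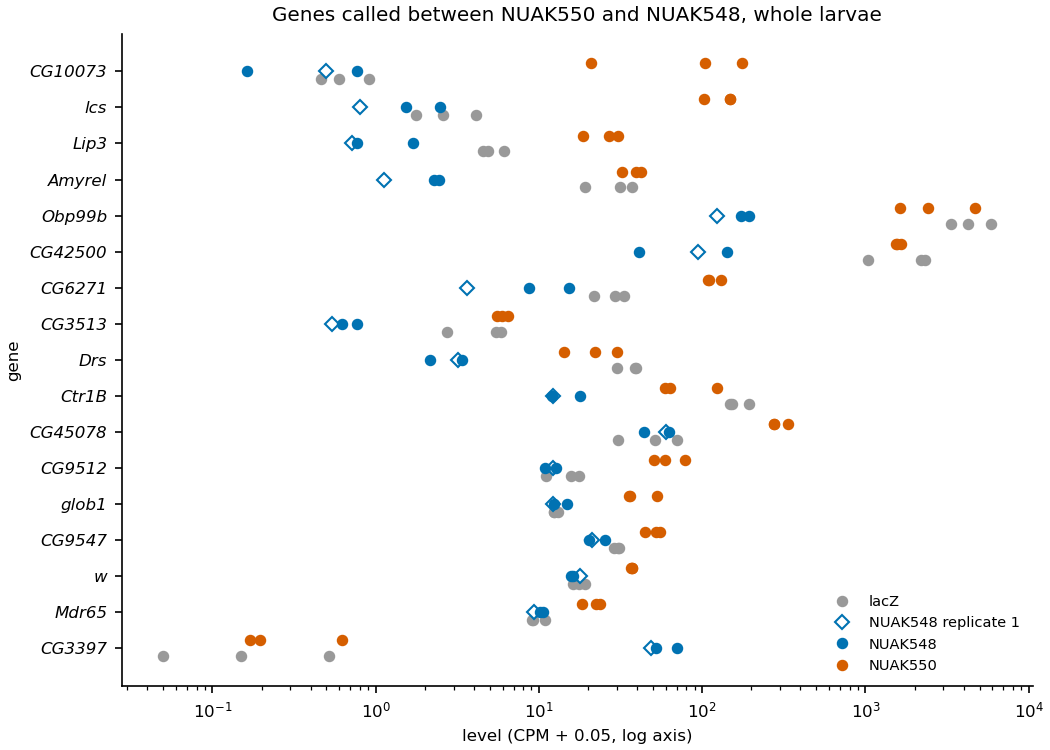
The 17 called genes are shown on the vertical axis and their level in each whole-larva library (CPM + 0.05, log axis) on the horizontal axis, with lacZ in grey, NUAK548 in blue, its replicate 1 as an open diamond, and NUAK550 in orange. NUAK550 and NUAK548 do not overlap for any of them, and the grey points lie beside blue for genes such as w and lcs and beside orange for genes such as Amyrel and Obp99b.

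Each call rested on few libraries. Without lacZ replicate 1, 2 or 3 the fit called 7, 7 and 48 genes, of which 5, 6 and 16 were among the 17. Without NUAK550 replicate 1, 2 or 3 it called 1, 6 and 11 genes, of which 1, 5 and 9 were. Without NUAK548 replicate 2 the single call was lcs, without NUAK548 replicate 3 Lip3, and without NUAK550 replicate 1 CG10073. Every called gene kept its direction in each of these 9 fits, with adjusted p up to 0.066 for lcs, 0.068 for w and 0.20 for Mdr65. The lipase gene Lip3 and lcs passed in 7 of the 9 fits and w in 5.

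One gene was called in whole larvae only without NUAK548 replicate 1. Dnaaf3, named for the assembly of axonemal dyneins, the motors of cilia and sperm tails, was at 9.89, 0.0554 and 0 CPM in NUAK548, 4.56, 3.68 and 2.83 CPM in NUAK550 and 8.91 to 9.28 CPM in lacZ. Its log2 fold change was 0.15 with that library (adjusted p = 0.98) and 6.74 without it (adjusted p = 0.0098). In muscle carcass it was at 0.127 ± 0.110 CPM (SD, n = 3) in NUAK548 and at 9.17 ± 2.24 CPM in NUAK550. There it was called by the same edgeR test (log2 6.165, adjusted p = 0.0053).

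Digestive enzyme genes were mostly at higher levels in NUAK550, and 2 of them were called. The list holds 55 genes, of which 52 were tested, and Amyrel and Lip3 rose (0.131% of all genes did), with no called fall (0.00816%). Both were also called without NUAK548 replicate 1. With the 6 NUAK libraries alone 11 members were called higher (1.15% of all genes were), and in DESeq2 16 were (5.57%). All 3 NUAK550 libraries lay above all 3 NUAK548 libraries for 26 of the 52, where this held for 14.5% of all genes tested, and below them for 0 members, against 9.65%. The median log2 fold change was 1.12, against −0.06 for all genes, and 1.14 without that library, against 0.00. Such counts and medians cover only members that passed the filter on low counts, which a gene can pass through the group where it is high, so they are given as description.

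The summed level of all 55 genes was 22830, 35720 and 11920 CPM in NUAK548 and 51290, 38500 and 33460 CPM in NUAK550. The lowest NUAK550 library lay below the highest NUAK548 library, so the sums overlapped. NUAK548 replicate 1 was not unusual here, at 0.958 of the mean of its group mates, while replicate 2 was 3.00-fold above replicate 3. The lacZ sums spread as widely, from 13580 to 38740 CPM.

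The 3 amylase genes, for starch digestion, had a median log2 fold change of 4.83. Amyrel (2R:16651095-16652699), an amylase-related gene, went from 1.07, 2.38 and 2.23 CPM to 32.4, 39.5 and 42.4 CPM (log2 4.34, SE 0.37, adjusted p = 0.012). The lacZ larvae were at 19.2 to 37.1 CPM, so again NUAK548 was the low group. The alpha-amylase gene Amy-p was at 14.8, 10.5 and 3.71 CPM in NUAK548 and at 299, 326 and 231 CPM in NUAK550 (log2 4.87, SE 0.85, adjusted p = 0.088). Its neighbour Amy-d, a close copy with which it can share reads, was at 22, 6.76 and 4.45 CPM and at 369, 365 and 217 CPM. Amylase levels in lacZ varied between libraries, with 41.4 to 318 CPM for Amy-p, and its call was made only without lacZ replicate 3 (adjusted p = 0.048), in DESeq2 and with the 6 NUAK libraries alone.

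Of the maltases, which split the sugars that amylases release, 9 were tested and 0 were called. Their family median was log2 1.55, and all 3 NUAK550 libraries lay above NUAK548 for 8 of them, against 14.5% of all genes. Mal-A4 stood at 1.34, 1.38 and 0.514 CPM in NUAK548 and at 18.8, 36.8 and 31.2 CPM in NUAK550 (log2 4.73, SE 0.65, adjusted p = 0.062). Mal-A6, with 31.8, 44.5 and 62.8 CPM against 122, 135 and 119 CPM, had a smaller log2 fold change of 1.44.

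Fat-splitting enzymes were represented by Lip3 (3R:13370240-13371904) and magro, mag, which encode lipases. Lip3 was at 0.668, 0.720 and 1.65 CPM in NUAK548 and at 30.6, 18.6 and 27.0 CPM in NUAK550 (log2 4.64, SE 0.42, adjusted p = 0.012), with lacZ between them at 4.5 to 6.09 CPM. mag was at 39.9, 47.2 and 15 CPM and at 398, 317 and 229 CPM, a difference of log2 3.21 that was not called (adjusted p = 0.11). CG6271, a called gene outside the list, went from 3.56, 8.59 and 15.2 CPM to 130, 109 and 110 CPM (log2 3.68, adjusted p = 0.048, and 3.33 with adjusted p = 0.0098 without NUAK548 replicate 1).

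The Jonah genes, serine proteases of the gut with many similar copies, carried most of the summed level. Their sum was 19400, 30600 and 10000 CPM in NUAK548 and 43900, 33100 and 27200 CPM in NUAK550. Members differed: Jon65Aiv was at 5350, 8670 and 2290 CPM and at 9340, 6320 and 5500 CPM, and its groups overlapped. Jon99Cii, at 2300, 3250 and 1460 CPM and at 6080, 4970 and 4240 CPM, did not overlap (log2 1.13, SE 0.41, adjusted p = 0.23). Jon25Biii, at 334, 582 and 248 CPM and at 2480, 2460 and 1600 CPM, had a log2 fold change of 2.49. Of the 17 Jonah genes, 8 lay fully higher in NUAK550 (14.5% of all genes did), and none was called.

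Lysozymes, which in the larval gut digest bacteria, did not share this pattern. None of the 7 was fully above NUAK548 (14.5% of all genes were), and their median log2 fold change was 0.11. Of the 7, 4 were above 0, in a range from −0.86 to 1.99. They summed to 335, 830 and 146 CPM in NUAK548 and to 805, 605 and 526 CPM in NUAK550, which overlap. LysX was at 64.9, 53.2 and 93.7 CPM in NUAK548 and at 38.2, 44.0 and 53.3 CPM in NUAK550 (log2 −0.64, SE 0.21, adjusted p = 0.23).

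**Figure D3:**
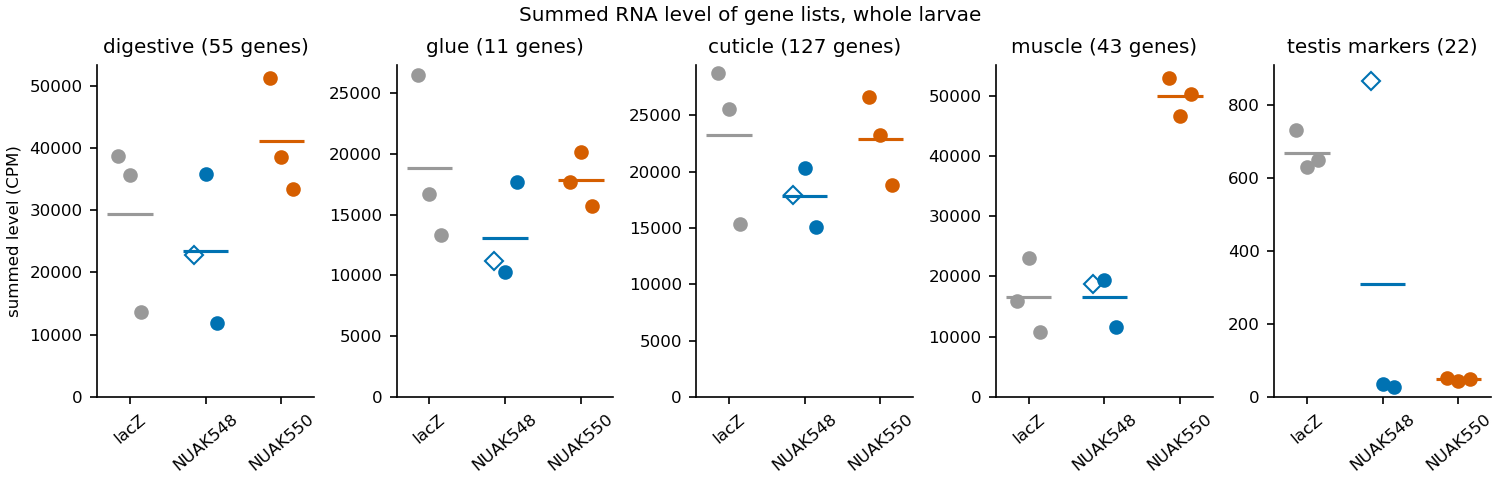
Summed level in CPM (vertical axis, a separate linear scale from 0 in each panel) of the digestive, glue, cuticle, muscle and testis lists in each whole-larva library, with group means as bars and NUAK548 replicate 1 as an open diamond. The NUAK550 points of the muscle panel, 46620 to 52910 CPM, lie above all others, the digestive, glue and cuticle panels overlap, and the diamond is far from its group only in the testis panel.

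Glue genes showed no called change in the 9-library fit. With the 6 NUAK libraries alone 1 member was called higher (1.15% of all genes were), and in DESeq2 3 were, ng1, ng2 and ng3 (5.57%). The list has 11 members, of which 10 were tested, and its median log2 fold change was 0.57, or 0.52 without NUAK548 replicate 1. The sum was 11170, 10300 and 17670 CPM in NUAK548 and 17660, 20180 and 15670 CPM in NUAK550. NUAK548 replicate 3 lay within the NUAK550 range and the other NUAK548 libraries below it.

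The abundant Sgs genes, which encode the secreted glue proteins, overlapped between the groups in 7 of 7 cases. Of all genes, 14.5% lay fully above NUAK548 and 9.65% fully below. Sgs3, the member with the highest counts, was at 4330, 3450 and 7070 CPM in NUAK548 and at 7940, 7840 and 6710 CPM in NUAK550 (log2 0.60, SE 0.33, adjusted p = 0.33). Sgs5, Sgs7 and Sgs4 had log2 fold changes of 0.22, 0.19 and 0.42, each smaller than 1.5 times its SE. The less abundant Sgs5bis was at 23.3, 20.2 and 73.2 CPM and at 71.9, 130 and 131 CPM (log2 1.52, SE 0.60, adjusted p = 0.23).

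The new-glue genes ng1, ng2 and ng3, which salivary glands express before the main Sgs genes, separated the groups. These 3 were the glue members with all NUAK550 libraries above NUAK548, against 14.5% of all genes. ng3 was at 19.5, 100 and 21.9 CPM in NUAK548 and at 346, 316 and 439 CPM in NUAK550 (log2 2.96, SE 0.76, adjusted p = 0.16). ng1 (X:3242412-3242934) was at 0.713, 1.61 and 0.171 CPM and at 26.5, 20.6 and 58.6 CPM (log2 5.40, SE 1.13, adjusted p = 0.12). Both lay in lacZ near the NUAK548 level, at 9.42 to 40.8 CPM for ng3 and 0.0517 to 1.65 CPM for ng1. ng1 passed with the 6 NUAK libraries alone (adjusted p = 0.037) and all 3 in DESeq2, with adjusted p = 2.1e-05, 0.0019 and 0.00091 for ng1, ng2 and ng3. Their difference was not called in the 9-library fit, and ng1 and ng2 are similar copies whose reads may be split.

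Cuticle genes likewise held no call in the 9-library fit, while 3 were called higher with the 6 NUAK libraries alone (1.15% of all genes were) and 13 in DESeq2 (5.57%). Of 127 members, 64 were too low to be tested and 8 had no count in the 6 libraries. Among the 63 tested, 26 (41.3%) lay fully above NUAK548 and 1 below, against 14.5% and 9.65% of all genes. The median log2 fold change was 0.59, and 1.12 without NUAK548 replicate 1 or 0.95 without replicate 2, where 69 and 70 members were tested. The sum was 17980, 20380 and 15140 CPM in NUAK548 and 26640, 23230 and 18820 CPM in NUAK550, which overlap.

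The Lcp family of larval cuticle proteins had the higher family median, at log2 2.53 with 8 of 10 tested members fully above NUAK548 (14.5% of all genes were). Lcp1 was at 4040, 3210 and 3200 CPM in NUAK548 and at 7860, 6740 and 5860 CPM in NUAK550 (log2 0.97, SE 0.39, adjusted p = 0.23), and lacZ spanned both groups at 2780 to 8840 CPM. Lcp3, at 3790, 6890 and 1680 CPM and at 6850, 5280 and 1840 CPM, overlapped. Lcp9 was at 5.75, 11.6 and 1.83 CPM and at 122, 128 and 114 CPM, a log2 fold change of 4.24 (adjusted p = 0.12). Lcp65Aa (3L:6151304-6151803) was at 0.445, 0.665 and 0.114 CPM and at 6.18, 14.1 and 14.5 CPM (log2 4.80, SE 0.67, adjusted p = 0.064).

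The larger Cpr family of chitin-binding cuticle proteins had a median of log2 0.46, with 13 of 39 tested members fully above, against the same 14.5%. Cpr97Ea was at 0.401, 0.609 and 0.913 CPM in NUAK548 and at 3.83, 5.48 and 3.30 CPM in NUAK550 (log2 2.71, SE 0.39, adjusted p = 0.068). Cpr49Af was at 1.38, 4.71 and 1.31 CPM and at 42.0, 19.2 and 47.5 CPM (log2 3.88, adjusted p = 0.11). The member with the highest counts had a negative estimate: Cpr49Ac was at 3950, 3050 and 6810 CPM and at 1570, 2560 and 4950 CPM, with overlap between the groups (log2 −0.60, SE 0.45, adjusted p = 0.49). Single libraries set some values, as for Cpr47Eg with 0.663, 0.603 and 95.2 CPM in NUAK550, where replicate 3 alone was high.

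Muscle genes were the list with the largest share of members whose groups did not overlap, although none was called. The 43 genes summed to 18750, 19460 and 11640 CPM in NUAK548 and to 52910, 46620 and 50330 CPM in NUAK550, a 3.01-fold difference of means. The lowest NUAK550 library was 2.40-fold above the highest NUAK548 library, and without NUAK548 replicate 1 the difference was 3.21-fold. lacZ, at 15930, 23110 and 10700 CPM, lay with NUAK548.

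Of 38 tested members, 31 (81.6%) had all NUAK550 libraries above NUAK548 and 0 had them below, against 14.5% and 9.65% of all genes. An unadjusted p below 0.05 was found for 28 members, against 21.4% of all genes. The median log2 fold change was 1.54, and 1.78 without NUAK548 replicate 1. The 12 muscle markers, a subset of sarcomere genes, were all fully higher in NUAK550, with a summed level 4.26-fold above NUAK548. Replicate 3 of NUAK548 and of lacZ had the lowest muscle sum of its group. With 6 libraries in the fit 6 muscle members were called higher (background 1.15%), and in DESeq2 26 were (5.57%).

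Among the muscle families, thick filament genes had the highest median, log2 2.54. Mhc (2L:16766566-16788766), the myosin heavy chain of all fly muscle, was at 372, 354 and 70.5 CPM in NUAK548 and at 3270, 2670 and 3810 CPM in NUAK550 (log2 3.61, SE 1.00, adjusted p = 0.18). Mlc2, a myosin light chain, was at 532, 938 and 140 CPM and at 4920, 4020 and 3540 CPM (log2 2.95, SE 0.87, adjusted p = 0.20). Paramyosin, Prm, in the core of the filament, was at 859, 787 and 427 CPM and at 2590, 2340 and 2550 CPM (log2 1.85, adjusted p = 0.12). In each case NUAK548 replicate 3 was the lowest library, and replicates 1 and 2 still lay below every NUAK550 library.

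Thin filament genes had lower family medians than thick filament genes, log2 1.33 for the actins and 1.78 for troponin and tropomyosin. Act57B, a larval muscle actin, was at 3620, 3150 and 867 CPM in NUAK548 and at 11600, 9850 and 10600 CPM in NUAK550 (log2 2.07, SE 0.65, adjusted p = 0.22). Troponin T, encoded by up, was at 856, 1140 and 348 CPM and at 3080, 2410 and 2430 CPM (log2 1.75, SE 0.56, adjusted p = 0.23). The 7 tested troponin and tropomyosin genes were all fully higher in NUAK550 (14.5% of all genes were), with log2 fold changes from 0.61 to 3.74. Of the 3 tested actins 2 were fully higher, and Act79B overlapped at 2.32, 1.22 and 1.94 CPM against 1.40, 1.21 and 0.862 CPM (log2 −0.66, SE 0.46, adjusted p = 0.45).

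Z-disc and titin-like genes were also fully higher in 7 of 7 cases (14.5% of all genes were), with a median of log2 1.56. Alpha-actinin, Actn, was at 246, 251 and 156 CPM in NUAK548 and at 672, 587 and 718 CPM in NUAK550 (log2 1.60, SE 0.34, adjusted p = 0.12). The LIM protein gene Mlp84B was at 279, 243 and 181 CPM and at 785, 652 and 642 CPM (log2 1.56, SE 0.32, adjusted p = 0.11).

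The 14 tested genes of calcium handling, energy supply and other roles had a lower median, log2 0.42, with a range from −0.34 to 2.05. Of them 9 were fully above NUAK548, against 14.5% of all genes. Argk1, the arginine kinase that buffers ATP and the member with the highest fold change, was at 480, 524 and 378 CPM in NUAK548 and at 1750, 2030 and 1940 CPM in NUAK550 (log2 2.05, SE 0.39, adjusted p = 0.10). All lacZ libraries lay above NUAK548 for Argk1, at 1240, 1870 and 569 CPM, and lacZ replicate 2 lay within the NUAK550 range. SERCA, the calcium pump of the sarcoplasmic reticulum, was at 527, 434 and 493 CPM and at 913, 917 and 1260 CPM (log2 1.09, SE 0.21, adjusted p = 0.11). The smallest adjusted p of the list was that of the TRIM protein gene thin, tn, with 341, 414 and 393 CPM and 666, 801 and 828 CPM (log2 1.00, SE 0.15, adjusted p = 0.077). Members called higher without lacZ replicate 3 numbered 3 (0.362% of all genes were), among them Argk1 (adjusted p = 0.023) and Mlp84B (0.040).

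For Mlc-c and cher, picked after their values were seen, the groups overlapped. Mlc-c, a light chain of nonmuscle myosin, was at 349, 380 and 426 CPM in NUAK548 and at 324, 345 and 372 CPM in NUAK550 (log2 −0.15, SE 0.12, adjusted p = 0.53). The filamin gene cher was at 1020, 1220 and 1660 CPM and at 788, 948 and 1340 CPM (log2 −0.34, adjusted p = 0.54).

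**Figure D4:**
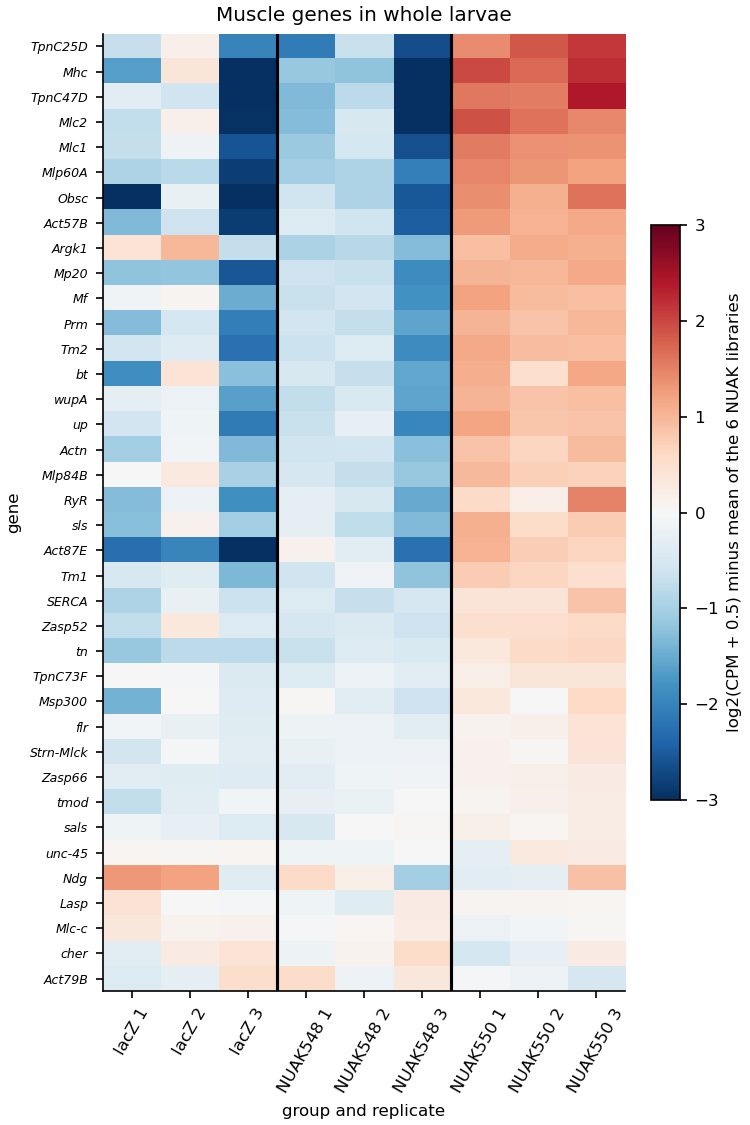
Level of each tested muscle gene in each whole-larva library, as log2(CPM + 0.5) minus the mean of the 6 NUAK libraries. Genes are rows, ordered by log2 fold change of NUAK550 over NUAK548, and libraries are columns. The NUAK550 columns are red for the upper rows and the NUAK548 columns are blue there. The lacZ columns are mixed, with lacZ replicate 2 above the mean of the 6 NUAK libraries for Mhc, Mlc2 and Argk1. Replicate 3 is the darkest blue column in both lacZ and NUAK548.

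**Figure D5:**
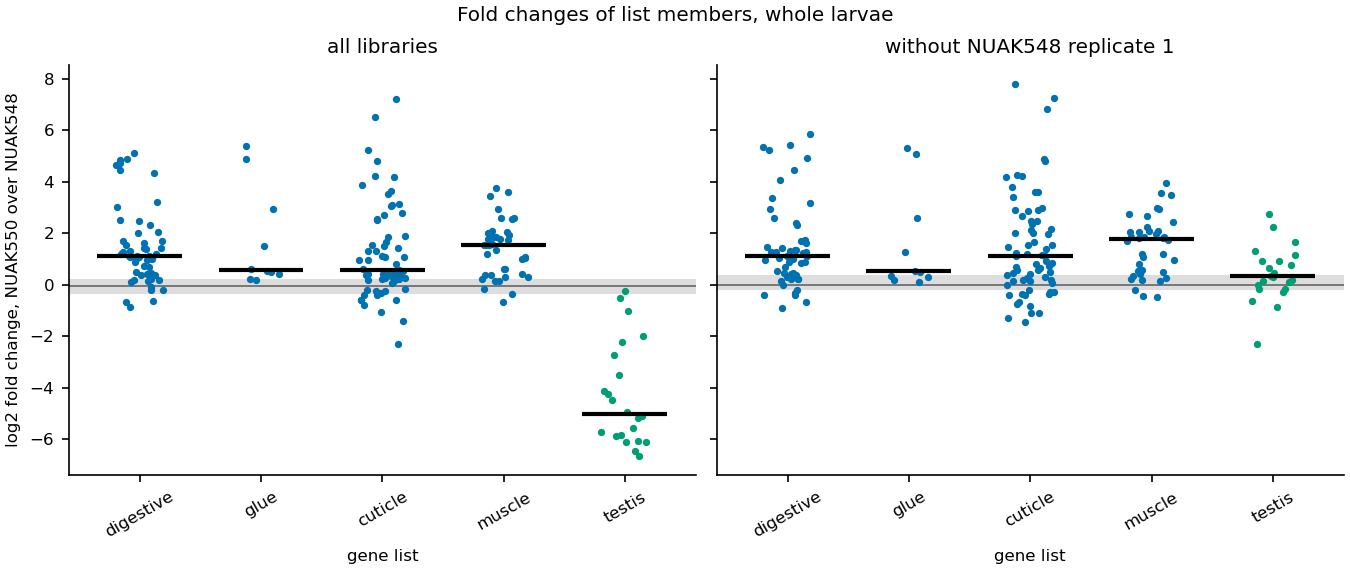
Log2 fold changes of NUAK550 over NUAK548 (vertical axis) for each tested member of 5 gene lists, with all libraries on the left and without NUAK548 replicate 1 on the right. Bars are list medians, the grey line is the median of all genes tested and the grey band their middle quartiles; the testis median moves from −5.02 to 0.33, and the muscle median from 1.54 to 1.78.

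NUAK550 and NUAK548 were also compared in dissected muscle carcass to see which differences the muscle preparation shared. There 142 of 9821 genes were called (1.45%), 92 higher (0.937%) and 50 lower (0.509%) in NUAK550. Male-linked RNA differed between the carcass groups as well, and its part in these calls was not tested. There lncRNA:roX1 was at 201 ± 83.2 CPM (SD, n = 3) in NUAK548 and at 51.7 ± 3.08 CPM in NUAK550 (log2 −1.96, adjusted p = 0.020), and lncRNA:roX2 also fell (log2 −6.05, adjusted p = 0.0072). The 7 dosage compensation genes, these 2 included, summed to 408, 331 and 228 CPM in NUAK548 carcass and to 147, 159 and 143 CPM in NUAK550 carcass. Their median log2 fold change in carcass was −0.40, and lncRNA:roX1 and lncRNA:roX2 were the 2 members called. In carcass w rose by log2 1.22 (adjusted p = 0.0092), as it did in whole larvae, and CG3397 fell (log2 −9.44, adjusted p = 0.0074). Muscle genes summed to 56230, 129200 and 91920 CPM in NUAK548 carcass and to 186500, 134600 and 183000 CPM in NUAK550 carcass. Their median log2 fold change was 0.79, and 0 of 39 tested members were called.

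For the cuticle list, 8 of 65 tested members rose and 1 fell in carcass, against 0.937% and 0.509% of all genes, with a median of log2 0.93. Lcp65Aa was among those that rose, by log2 4.10 (adjusted p = 0.041). The digestive list had a median of 0.75 over 33 tested members and the glue list 3.50 over 8, each with 0 called. Digestive genes were scarce in carcass, with sums of 286 to 414 CPM in the 6 NUAK libraries. The glue sums there ran from 21.6 to 66.5 CPM except for 1298 CPM in NUAK550 replicate 3.

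A model of all 18 libraries tested whether the difference in whole larvae departed from that in carcass. Of 12429 genes, 1 was called (0.00805%), and it was in none of the 4 lists. This was babos, named here after its value was seen, which was higher in NUAK550 carcass and not in whole larvae. It was at 43.6, 42.0 and 48.4 CPM in NUAK548 whole larvae and at 35, 46.2 and 43.4 CPM in NUAK550, and at 17.8 ± 0.57 and 54.4 ± 7.63 CPM (SD, n = 3) in carcass. The departure was log2 −1.77 (SE 0.23, adjusted p = 0.024).

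For the genes above, the departure from carcass was not called. Some of them, among them Amyrel, Lip3, CG6271 and CG10073, were too low in carcass to pass its filter on low counts. For these the comparison tells little. CG9512 came nearest, with log2 2.00 (SE 0.30, adjusted p = 0.055), and CG42500 had log2 3.44 (SE 0.55, adjusted p = 0.074). For Mhc it was log2 1.78 (SE 1.20, adjusted p = 0.58) and for Act57B 0.93 (SE 0.76, adjusted p = 0.68). With standard errors of this size, a p that misses the threshold does not show that the groups differed alike in whole larvae and carcass.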

How the data were processed

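The deposited files hold raw counts per gene, 1 file per library, per the file headers. The submitters' processing notes name Trimmomatic 0.36, STAR 2.5.2b, featureCounts, Subread 1.5.2 and DESeq2 as tools and BDGP6 as the build. Neither the strand setting nor the annotation release is given in the sources used here. The input was 2.0 ug of total RNA per library, per the labels' protocols. Of 17411 identifiers, 17136 were named through a reference annotation by identifier and 220 by position (exon overlap with a Jaccard index from 0.5 up); the other 55 held 0.0029% of counts. The headers of the NUAK550 whole files carry other replicate numbers than the labels, which were followed.

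All 9 whole-larva libraries, in 3 groups with 6 residual degrees of freedom, entered edgeR 4.0.16 (R 4.3.3): filterByExpr, TMM scaling, quasi-likelihood F test, Benjamini-Hochberg adjustment, calls below 0.05, two-sided. Standard errors were derived from the F statistic. The difference between preparations came from a model of all 18 libraries with 12 residual degrees of freedom. DESeq2 1.42.0, limma-voom (limma 3.58.1), another scaling (RLE), library totals, no low-count filter, the 6 NUAK libraries alone, a replicate block and each library left out were alternatives. The test was checked on simulated data with changes in either direction. At the spread estimated for each gene it called 19 of 96 changes of log2 1 and 50 of 96 of log2 2, with 6 false calls. With the dispersion divided by 4 it called 59 of 97 and 80 of 98, with 10 false calls. A gene that was not called may therefore still differ. Within each NUAK group no 2 libraries were copies, as chi-square divided by its degrees of freedom was 40 or more. Pairs across groups were not compared in this way. Depth was 14931020 to 22341807 reads. Deposited normalized tables were not used.

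The libraries and the gene lists were chosen with earlier results of these data known. Named genes were Nuak, w, lncRNA:roX1 and lncRNA:roX2; the 10 genes with the smallest p; in each of the 4 main lists the 4 most abundant and the 4 with the smallest p; and the 10 with the smallest p among those called without NUAK548 replicate 1. Other members of the lists, and called genes beyond these, are named as examples chosen after their values were seen.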

Additional observations from a re-analysis of the deposited data

Results flagged for a closer look

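For babos, the difference between NUAK550 and NUAK548 was itself different in the 2 preparations. In whole larvae it was log2 −0.10 (adjusted p = 0.79) and in muscle carcass 1.61 (adjusted p = 0.0019), and the test of the difference in edgeR gave log2 −1.77 (adjusted p = 0.024). Exons of CG13506 cover 10.7% of babos. No other gene passed this test.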

How the results depend on the processing

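The count of 17 calls moved to 989 in DESeq2, 134 with the 6 NUAK libraries alone and 10 with a replicate block, and ran from 1 to 48 when single libraries were left out; RLE scaling, library totals, no low-count filter and limma-voom gave 18, 19, 16 and 19. The block kept 6 of the 17. By the labelled numbers, deviations of same-numbered NUAK548 and NUAK550 libraries correlated at −0.009, 0.037 and 0.084, so these numbers were not taken to pair the 2 groups compared. Those of lacZ and NUAK548 correlated at 0.158, 0.397 and 0.343, and those of lacZ and NUAK550 at 0.036, −0.032 and 0.229. The block follows the labelled numbers and would differ under the numbers in the NUAK550 file headers, which are 2, 3 and 5. Under those, the libraries numbered 2 correlated at 0.183 (NUAK548 with NUAK550) and 0.247 (lacZ with NUAK550), and those numbered 3 at 0.063 and −0.061. A block by the header numbers was not run. The 1 gene that differed between preparations became 5 with limma-voom, 2 with RLE scaling and 0 with a replicate block within each preparation, and 0 to 3 when single libraries were left out. Leaving out single libraries gave list medians of log2 0.78 to 1.44 (digestive), 0.45 to 0.88 (glue), 0.59 to 1.12 (cuticle) and 1.28 to 1.78 (muscle). Library totals moved the median of all genes to log2 −0.27, from −0.06, and the list medians to 0.92, 0.37 (cuticle), 0.36 (glue) and 1.32 (muscle), so each list stayed above all genes by a similar margin. No named result that was called reversed its sign under the alternatives run. Among genes not called in that fit, the estimates of Jon65Aiii, Lcp3, Sgs7, lncRNA:roX1 and Dnaaf3 changed sign under at least 1 alternative. Of these, Dnaaf3 was called without NUAK548 replicate 1, and its estimates ran from log2 −0.435 to 6.735. The cause of these shifts was not tested.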

Other observations

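Some storage proteins of the fat body had large differences between the groups that were not called. Lsp1alpha, a larval serum protein, was at 14.4, 56.3 and 23.5 CPM in NUAK548 and at 2270, 10400 and 444 CPM in NUAK550 (log2 7.12, SE 1.46, adjusted p = 0.11). Fbp2, another fat body protein, was at 214, 500 and 355 CPM and at 3710, 7700 and 1060 CPM (log2 3.55, adjusted p = 0.11). Lsp1beta was at 3450, 8000 and 942 CPM and at 24900, 20500 and 10500 CPM. Lsp2 overlapped at 2700, 4340 and 3040 CPM against 3700, 3380 and 2100 CPM. Of the 19 tested fat body genes only Obp99b was called (0.139% of all genes were). Fully above NUAK548 lay 7 members and fully below it 1, against 14.5% and 9.65% of all genes. The list median was log2 0.09, against −0.06 for all genes. Without NUAK548 replicate 1 it was 0.002, against 0.00. Genes of each list were named after their values were seen.

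Genes of the ecdysone response, the hormone cascade that times moulting and pupariation, had a median log2 fold change of −0.39, against −0.06 for all genes. Without NUAK548 replicate 1 it was −0.435, against 0.00. With all libraries, 8 of 26 tested members were above 0, where 5034 of all 12255 genes were. None was called (0.139% of all genes were), and none lay fully above or fully below NUAK548, against 14.5% and 9.65% of all genes. The nuclear receptor gene Hr4 was at 234, 32.7 and 250 CPM in NUAK548 and at 6.11, 16.7 and 126 CPM in NUAK550, so it varied within both groups. Eip78C was at 174, 41.2 and 148 CPM and at 16, 22 and 69.4 CPM. The levels of both genes differed several-fold between replicates of a group.

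Among chaperones, stv, which encodes the cochaperone Starvin, was at 92.1, 92.7 and 64.8 CPM in NUAK548 and at 143, 163 and 127 CPM in NUAK550 (log2 0.79, SE 0.22, adjusted p = 0.18), with lacZ at 51.1 to 85.8 CPM. l(2)efl, a small heat shock protein gene, was at 1310, 1520 and 1210 CPM and at 2460, 2400 and 2230 CPM (log2 0.81, adjusted p = 0.13), above 428 to 650 CPM in lacZ. Hsp83 was at 2050, 2050 and 2540 CPM and at 1330, 1740 and 1230 CPM. Over 24 tested chaperones the median was log2 −0.19, against −0.06 for all genes. Without NUAK548 replicate 1 it was 0.105 over 26 tested, against 0.00, so its sign rested on that library. Of the 24, 3 members lay fully above and 3 fully below, shares near the 14.5% and 9.65% of all genes. Hsp60B, Hsp60C and Hsp60D were high in NUAK548 replicate 1 and lacZ, as the testis genes were; Hsp60C was at 109, 0.388 and 0.228 CPM in NUAK548, at 0.368 to 1.05 CPM in NUAK550 and at 77.5 to 102 CPM in lacZ.

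Among antimicrobial peptide genes other than Drs, DptA was at 14.1, 13.7 and 13.2 CPM in NUAK548 and at 2.36, 154 and 4.5 CPM in NUAK550, where replicate 2 alone was high. Dro followed the same library, with 50.1 CPM in replicate 2 against 0.368 and 0.479 CPM. Haemocyte markers summed to 429, 714 and 327 CPM in NUAK548 and to 1208, 832 and 948 CPM in NUAK550, and neuron markers differed by 1.01-fold. The 4 Malpighian tubule markers summed to 35.6, 46.8 and 25.1 CPM in NUAK548 and to 87.5, 68.8 and 64.2 CPM in NUAK550. Their median log2 fold change was 0.285, and 0.42 without NUAK548 replicate 1. Of the 4, 1 was fully above NUAK548 (14.5% of all genes were).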
